A study of Ovis aries with 32 samples.

Results

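Described here are the probes of immune receptors, cytokines and leukocyte antigens on a sheep gene expression array. They were chosen by name alone, as every non-control probe whose gene name begins, ignoring case, with IL, CCL, CCR, CD, TLR or IRF and a digit, or with CXCL, CXCR, IFN, TNF, OLA, OVAR or MHC. The rule found 122 of the 15008 probes on the array, under 77 of its 14351 names. Of these, 105 probes carry 60 gene names, and the other 17 are expressed sequence tags whose accession numbers begin with CD and a digit. These tags are fragments of transcripts read from a cDNA library and are not leukocyte antigens, so they are described apart from the rest.

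RNA came from the hearts of 14-day-old lambs, 8 from ewes without an infusion (Control) and 8 from ewes infused overnight with cortisol at 0.5 mg/kg/day in late pregnancy (CORT). The lambs themselves were not treated. The left ventricular free wall (LV) and the interventricular septum (IVS) of 8 lambs per group were each hybridised to 1 of 32 one-colour arrays. Per the study's text both tissues were taken from the same hearts and a pair of twins was born in each group, so the tissues are not independent and some lambs may have shared a ewe. Which arrays came from 1 lamb or from twins is not given.

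Cells of the body display peptides on molecules of the major histocompatibility complex (MHC), class I on nearly every nucleated cell and class II mostly on antigen-presenting cells such as macrophages, dendritic cells and B cells. Toll-like receptors (TLR) sense microbial molecules, interferon regulatory factors (IRF) switch on interferon genes and the genes that interferons induce, and chemokines draw leukocytes into tissue. The heart wall holds resident macrophages and few lymphocytes among its muscle, vessel and connective tissue cells. In RNA of whole tissue, fewer cells of a type cannot be told apart from less RNA per cell.

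The median spot intensity lay between 131 and 332 arbitrary units per array, and between 70.1% and 87.0% of all probes were brighter than the negative controls of their array. Each LV slide (1 and 2) held 4 Control and 4 CORT arrays, and the IVS arrays lay on slides 3, 4 and 5. Slide 5 was scanned on the same day as the LV slides, and slides 3 and 4 on other days. Of 22 genes fixed as markers of heart muscle cells, only TPM1 was named in the files. Its probe lay between 17.9 and 18.1 on the log2 scale in the LV. Arrays CORT LV 2 and CORT IVS 1 stood apart from the others in genes of the interferon response, and Control LV 7 in the mean of the leukocyte markers and in CD14 and IL8. Results that rest on these arrays are given with and without them.

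Each probe is a 60-base sequence, and 41 of the names have more than 1. A pair of probes for 1 gene can be nearly the same sequence or share none, which sets how far their values can be taken as 2 readings of 1 transcript. The probes of CD14, the lipopolysaccharide co-receptor of monocytes and macrophages, are shown first, with the 59 bases they share in capitals. They lie 1 base apart.

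CD14 A_70_P030286: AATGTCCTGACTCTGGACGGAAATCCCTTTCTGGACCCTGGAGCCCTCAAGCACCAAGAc
CD14 A_70_P030287: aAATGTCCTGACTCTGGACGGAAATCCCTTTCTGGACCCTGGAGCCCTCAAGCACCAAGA

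Over 32 arrays their mean log2 levels, 7.41 and 7.43, differed by 0.02. The probes of IFNAR2, a chain of the type I interferon receptor, share only 20 bases, again in capitals.

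IFNAR2 A_70_P030246: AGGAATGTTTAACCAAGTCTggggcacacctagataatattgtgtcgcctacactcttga
IFNAR2 A_70_P030247: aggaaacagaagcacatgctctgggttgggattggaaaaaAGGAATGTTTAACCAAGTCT

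Their mean levels, 8.66 and 9.80, differed by 1.14. The probes of IL13RA1, a chain of the receptor for interleukins 4 and 13, share no more than 6 bases in a row and are shown in lower case because their results below differ.

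IL13RA1 A_70_P002811: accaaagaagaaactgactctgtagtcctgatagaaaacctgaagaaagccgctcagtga
IL13RA1 A_70_P002812: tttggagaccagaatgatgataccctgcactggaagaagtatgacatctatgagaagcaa

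Their levels were 6.67 and 8.85, the widest gap of any pair at 2.18. Across genes, the 13 pairs that shared 40 or more bases lay 0.02 to 0.32 apart (median 0.06). The 37 pairs that shared fewer lay up to 2.18 apart (median 0.32), 3 of them by more than 1, and in 12 of these pairs the probes fell on different sides of the detection limit given next.

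A probe was taken as above the negative controls of an array when its mean signal exceeded their 95th percentile by more than 10%. Of the 122 probes, 75 (61.5%) were above it on at least 16 of the 32 arrays, against 78.6% of all probes on the array. Of these, 51 (41.8%, among all probes 64.6%) were above it on every array. Another 11 (9.02%, among all probes 3.34%) were above it on none. With the median of the negative controls in place of the 95th percentile the count of 75 became 99, and with their maximum 57. The median level of the 122 probes was 6.78, below the 7.73 of all probes. The limit was set on mean signal before background correction, so it has no single value on the normalised log2 scale. CD3E A_70_P039466 read 5.76 on Control LV 3 and was above it. Outside the rule, a probe of DYA read up to 6.54 in the IVS and was above it on no IVS array.

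Detection varied between and within the roles. All 8 probes of CD14, CD40, CD93 and the tetraspanins CD9 and CD81 were above the limit on every array, as were 6 of the 10 MHC and CD1 probes and 4 of the 5 probes of the interferon regulatory factors. Only 2 of the 26 interleukin probes were, both of them for IL18. Of the 12 probes for T cell antigens 2 were, both for CD3E, the epsilon chain of the T cell receptor complex. The 11 probes on no array were both probes of CD1 and of CCR9, 1 each of CD154 (now CD40LG), CD28, IFNG, IL2, IL4 and IL5, and a sequence tag. The other IFNG probe, A_70_P039612, was above the limit on 29 arrays, so that the 2 probes of the gene for interferon gamma gave opposite readings.

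**Figure D1:**
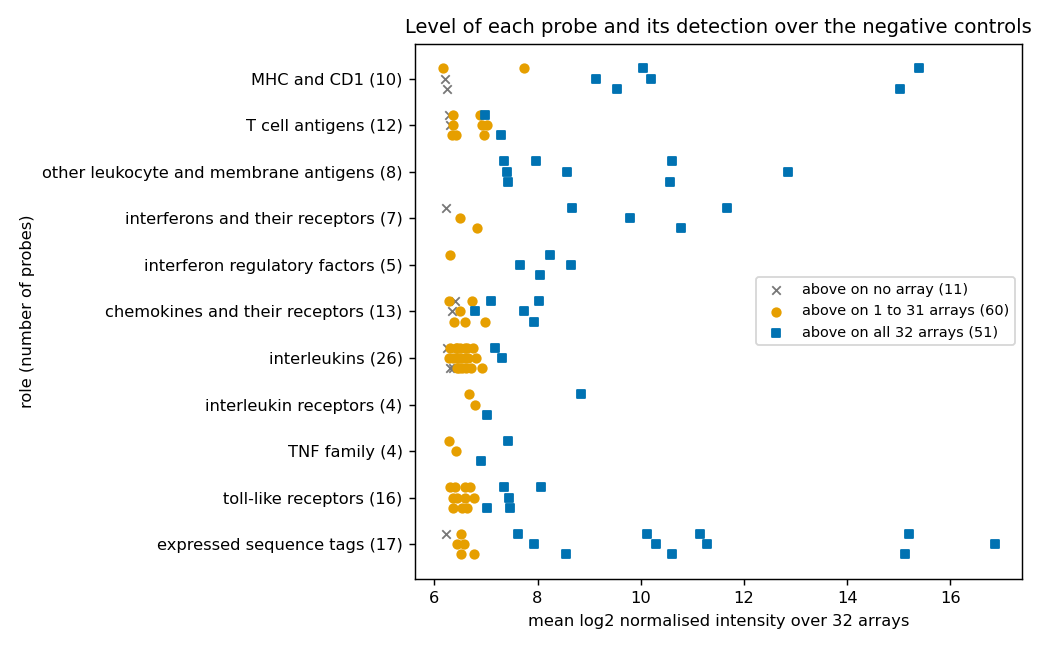
Mean log2 normalised intensity over 32 arrays (horizontal axis) of the 122 probes, grouped by role on the vertical axis, where the number of probes stands in brackets. Crosses mark the 11 probes above the negative controls on no array, circles the 60 above on some and squares the 51 above on all 32. Interleukin probes crowd at the low end of the axis, and only MHC class I probes and sequence tags exceed 13.

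CORT and Control lambs were compared in each tissue over the probes above the limit on at least 8 of its 16 arrays, by limma's two-sided moderated test. In the LV, 3 of 79 tested probes (3.8%) passed an unadjusted p of 0.05, against a background of 3.86% of all 11984 probes tested. All 3, for CD14, IL13RA1 and TLR6, were lower in CORT lambs (3.8%, among all probes 2.16%). In the IVS, 1 of 76 (1.32%) passed, a sequence tag that was higher in CORT lambs, against 3.58% of all 11803 in either direction and 1.6% higher. None passed after Benjamini-Hochberg adjustment over all probes tested (lowest adjusted p = 0.998 in the LV and 0.997 in the IVS, limma), and neither did any other probe of the array in these comparisons (0.0% in each tissue). Without the sequence tags, 3 of 65 probes passed in the LV (4.62%) and 0 of 63 in the IVS. The median difference of the set, CORT minus Control, was -0.01 in the LV and 0.02 in the IVS, and that of all probes 0.0019 and -0.0035. By sign, 45 of the 79 LV probes were lower and 34 higher, and 35 of the 76 IVS probes were lower and 41 higher.

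**Figure D2:**
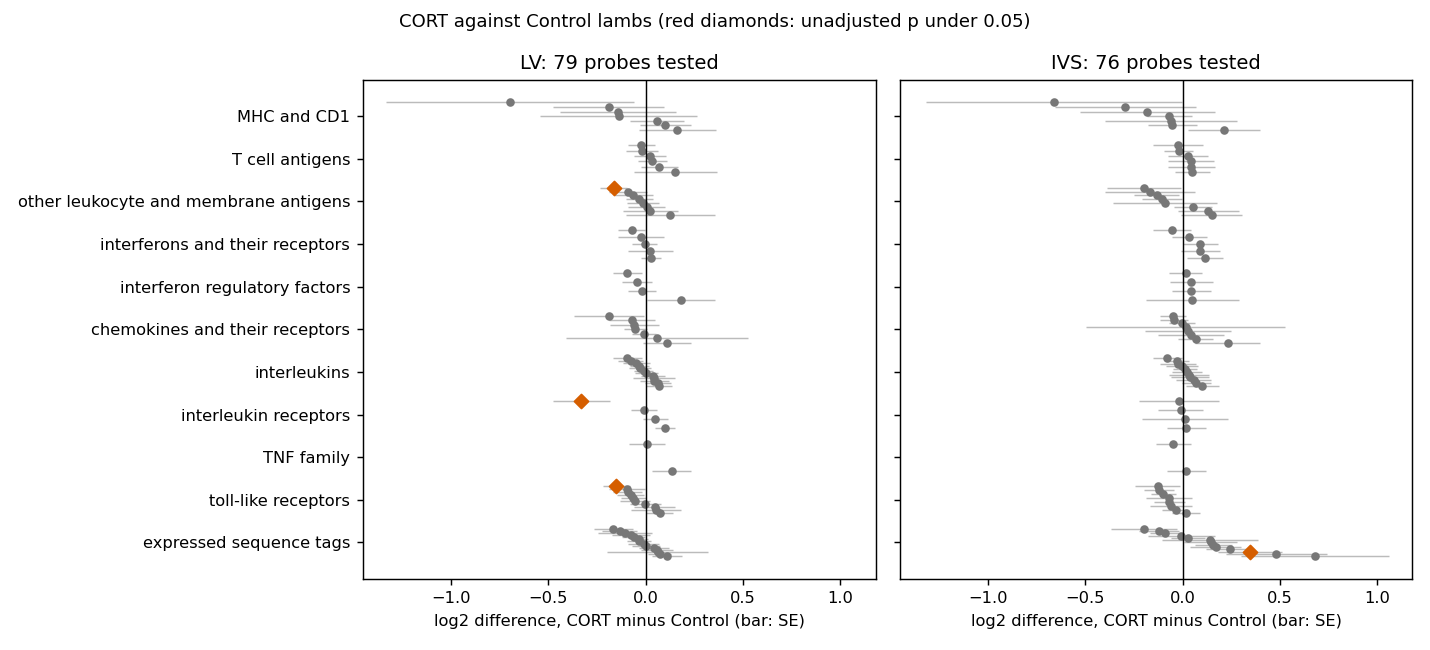
Difference in log2 normalised intensity, CORT minus Control (horizontal axis, bars are the standard error of the fit), of each tested probe by role, for the LV on the left and the IVS on the right. Red diamonds mark the 3 LV probes and 1 IVS probe with an unadjusted p under 0.05. In both tissues the widest error bar belongs to the OVAR-DQA1 probe of the MHC group.

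The MHC probes were among the brightest and the most variable. OVAR names the heavy chain of sheep MHC class I, and its 2 probes, which share no more than 5 bases in a row and are shown for that reason, were the brightest of those that carry a gene name.

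OVAR A_70_P001716: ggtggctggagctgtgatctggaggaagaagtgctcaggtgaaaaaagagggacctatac
OVAR A_70_P016117: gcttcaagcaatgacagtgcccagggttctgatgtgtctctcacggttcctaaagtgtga

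Probe A_70_P001716 lay between 14.68 and 16.71 on the Control LV arrays (median 15.38) and between 14.65 and 16.32 on the CORT LV arrays (median 15.16). In the IVS the Control range was 14.16 to 16.93 (median 15.44) and the CORT range 14.31 to 16.40 (median 15.20). The spread within each group was far wider than the difference between the groups, which overlapped over almost their whole range. The CORT minus Control differences were -0.19 in the LV and -0.29 in the IVS (unadjusted p = 0.515 and 0.432, limma). For the second probe, A_70_P016117, they were -0.14 and -0.18 (unadjusted p = 0.641 and 0.609, limma). The IVS slides did not share a direction. A_70_P001716 differed by -1.74 within slide 3, where both CORT arrays were below both Control arrays, by -0.06 within slide 4 and by 0.64 within slide 5. How many of all probes separated in this way on slide 3 was not counted. Without slide 3 the IVS differences of the probes turned positive (0.19 and 0.30). B2M, which encodes the invariant partner of the class I chain and is outside the naming rule, had a mean of 15.6 on one probe and 15.9 on the other, with no called difference in either tissue.

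MHCII-DRB1, a beta chain of class II, was above the limit on every array. In the LV the Control arrays had a median of 10.48 (8.59 to 11.13) and the CORT arrays 10.14 (8.96 to 11.82). In the IVS the medians were 10.25 (9.39 to 10.88) and 9.87 (8.998 to 11.70). The highest CORT value in the LV was that of CORT LV 2 and in the IVS that of CORT IVS 1, and the groups overlapped in both tissues. The differences were -0.14 and -0.06 (unadjusted p = 0.732 and 0.866, limma). Without CORT LV 2 and CORT IVS 1 they were -0.37 and -0.29 (unadjusted p = 0.325 and 0.335, limma).

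OVAR-DQA1, an alpha chain of class II of the DQ type, had 2 probes that read differently. Probe A_70_P053731 differs at 4 of 60 bases, in capitals, from a probe on the array for another DQ alpha chain, which the files name by its accession M93431.

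OVAR-DQA1 A_70_P053731: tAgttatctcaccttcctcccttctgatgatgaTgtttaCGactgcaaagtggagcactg
M93431 A_70_P026541: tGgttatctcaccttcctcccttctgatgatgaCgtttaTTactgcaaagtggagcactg

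With 56 identical bases, transcripts of both chains could bind to either probe. A_70_P053731 was above the limit on all 32 arrays, at 8.08 to 9.92 in the LV and 8.43 to 9.88 in the IVS, and its CORT minus Control differences were 0.16 and 0.21 (unadjusted p = 0.426 and 0.269, limma). The other probe, A_70_P016751, shares no more than 4 bases in a row with it and was above the limit on 20 arrays only. These were 7 of 8 Control arrays and 3 of 8 CORT arrays in the LV, and the same counts in the IVS (two-sided Fisher's exact test, p = 0.119 in each). On the arrays above the limit it reached from 6.75 to 10.81, and on the others it did not exceed 6.47. The Control medians were 8.46 in the LV and 7.95 in the IVS, and the CORT medians 6.45 and 6.35. The single highest value in either tissue was nevertheless a CORT array, CORT LV 2 at 10.81 and CORT IVS 1 at 10.77, so the groups overlapped. The differences were -0.70 in the LV (exact permutation p = 0.344, limma, unadjusted p = 0.289) and -0.66 in the IVS (exact permutation p = 0.381, limma, unadjusted p = 0.329). Without CORT LV 2 the LV difference became -1.18 (limma, unadjusted p = 0.0313), and without CORT IVS 1 the IVS difference became -1.15 (limma, unadjusted p = 0.0387). Leaving out these arrays was chosen after seeing their values. In these settings 4.44% and 3.4% of all probes passed, 0 of them after adjustment. The probe passed unadjusted in 2 of 28 alternative settings in the LV and 1 of 29 in the IVS. Both tissues came from the same hearts, so these are not 2 independent readings. Within slides, the LV difference was 0.14 on slide 1 and -1.54 on slide 2. With a standard deviation within groups of 1.41 in the LV and 1.45 in the IVS, the probe was the most variable of the set and more variable than 99.8% and 99.7% of all probes tested.

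**Figure D3:**
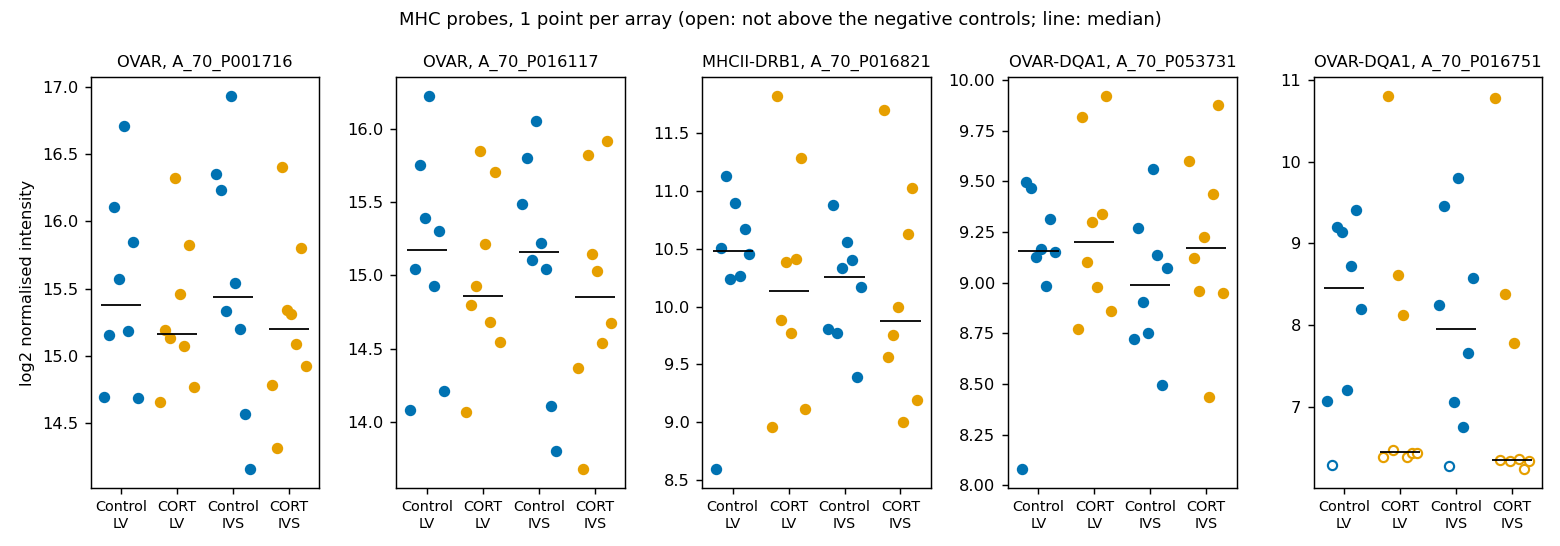
Log2 normalised intensity (vertical axes, each with its own range) of 5 MHC probes, 1 point per array, for Control (blue) and CORT (orange) lambs in the LV and IVS, with the median of each group as a line. Open circles are arrays on which the probe was not above the negative controls. OVAR-DQA1 A_70_P016751 lies at or above 6.75 on the 20 arrays where it was above the negative controls and at or below 6.47 on the other 12. The other 4 probes were above them on all 32 arrays.

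CD1D, an MHC-like molecule that presents lipids, was above the limit on every array with both probes (means 10.05 and 9.53). The CORT minus Control differences of both probes were at most 0.10 in either direction and not called. The related CD1B was above the limit on 1 array, Control LV 1 at 7.23.

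Among the chemokines, CXCL10, which interferons induce and which draws activated T cells, was the most variable. In the LV it lay between 6.76 and 8.48 on the Control arrays (median 7.90) and between 6.82 and 10.91 on the CORT arrays (median 7.18). In the IVS the Control range was 6.82 to 9.05 (median 7.70) and the CORT range 6.85 to 11.09 (median 7.28). The top values belonged to CORT LV 2 and CORT IVS 1. The next CORT arrays reached 8.06 and 7.90. CORT LV 2 was 13.3-fold above the median of the other 7 CORT LV arrays, and CORT IVS 1 15.1-fold above that of its group. With these arrays the CORT minus Control differences were 0.06 and 0.02 (unadjusted p = 0.906 and 0.975, limma). Without them the differences turned negative, -0.39 in the LV and -0.46 in the IVS (unadjusted p = 0.126 and 0.138, limma).

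The same arrays were highest for other genes of the interferon response. IRF1, a transcription factor that interferons induce, read 9.15 on CORT LV 2 and 9.32 on CORT IVS 1, while the highest of the other 15 arrays of each tissue read 8.42 and 8.63. TLR3, the endosomal receptor for double-stranded RNA, read 8.08 and 8.09 with probe A_70_P049626, against at most 7.65 and 7.92 elsewhere. The second TLR3 probe, A_70_P049627, was highest on CORT LV 2 (8.85) but not on CORT IVS 1 (8.47, highest IVS value 8.59). The sequence tag CD288271 A_70_P006831 read 12.16 and 11.69, against at most 10.92 and 10.58. On CORT LV 2 the receptor chains IFNAR2 (both probes) and IFNAR1E (now IFNAR1, 1 of its 2 probes) and the transcription factor IRF3 (both probes) were also highest, by smaller margins. IRF2, which competes with IRF1 for its sites, was not: it read 7.73 on CORT LV 2 and, at 7.30, had its lowest CORT value in the IVS on CORT IVS 1. All arrays of slide 3, which held CORT IVS 1, read low for IRF2 (7.21 to 7.44), below every other IVS array. Outside the naming rule, the interferon-induced antiviral genes MX1 and MX2 followed the pattern. MX2 read 13.28 and 12.94 on CORT LV 2 and CORT IVS 1, against at most 11.02 and 11.22 elsewhere, and MX1 read 13.38 and 13.27, against at most 11.97 and 12.27.

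In all, CORT LV 2 was the highest of 16 arrays for 14 of the 79 probes (17.7%), among them 13 of the 65 that carry a gene name, and for 8.2% of all probes tested. CORT IVS 1 was highest for 14 of 76 (18.4%), among them 10 of the 63 with a gene name (15.9%, the same as Control IVS 8), and for 8.06% of all probes. This array lay on slide 3. For both CCL25 probes and IL13RA1 A_70_P002811, which are among the 14, every array of that slide was above all other IVS arrays. The fixed list of leukocyte markers outside the rule, with 9 of its 33 genes named in the files, was not highest on CORT LV 2 or CORT IVS 1. Whether the paired arrays came from 1 lamb is not given in the labels, since the array numbers differ.

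**Figure D4:**
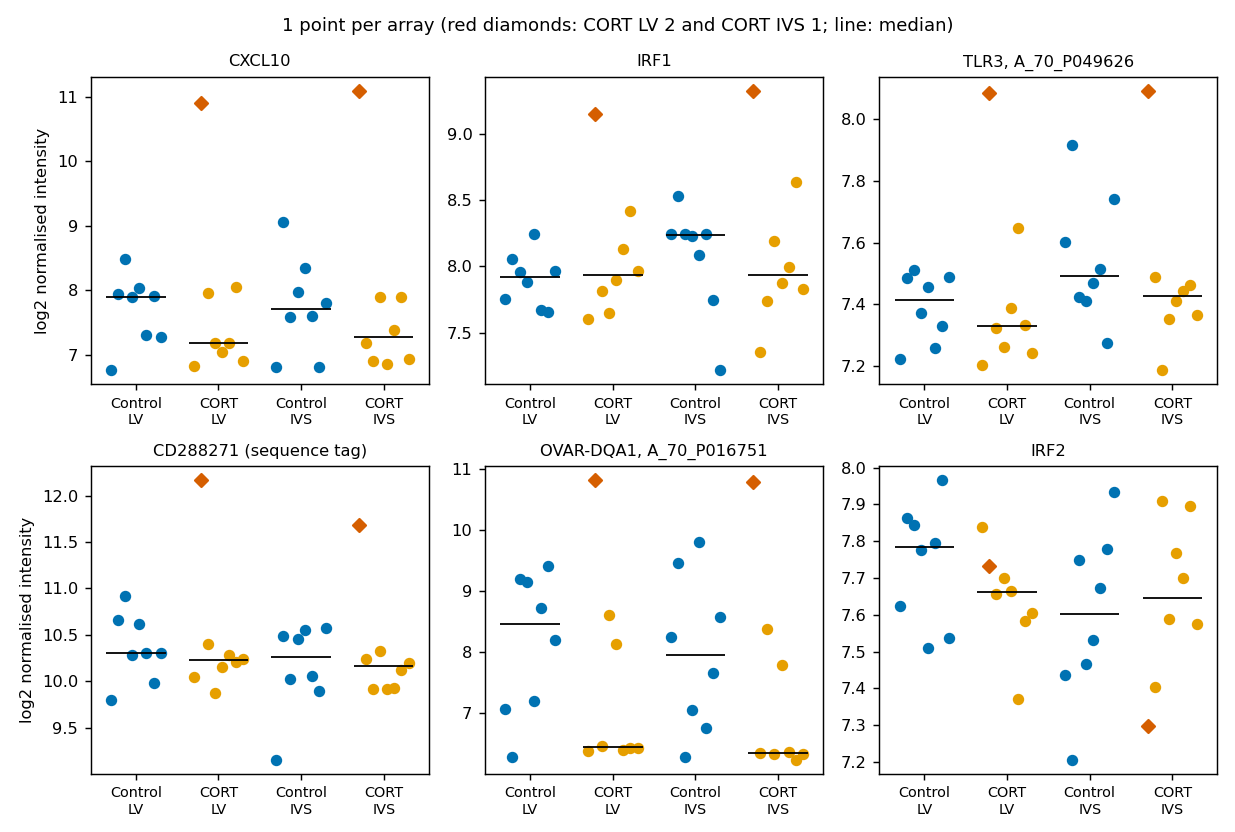
Log2 normalised intensity (vertical axes, each with its own range) of 6 probes, 1 point per array, for Control (blue) and CORT (orange) lambs in the LV and IVS, with the median of each group as a line. Red diamonds mark CORT LV 2 and CORT IVS 1. Both lie above every other array of their tissue for CXCL10, IRF1, TLR3 A_70_P049626, CD288271 and OVAR-DQA1, and not for IRF2.

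No probe of the interferons or their receptors was called between groups. The receptor chain IFNAR1E was the brightest of them, with means of 11.7 and 10.8, and IFNAR2 followed. The 5 probes tested differed by -0.07 to 0.03 in the LV and by -0.05 to 0.12 in the IVS (lowest unadjusted p = 0.295 and 0.224, limma). The probe for interferon 1 (IFN1) was above the limit on 6 arrays. Of the regulatory factors, IRF1, IRF2 and IRF3 were above it on all arrays.

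The remaining chemokine pairs showed ligand and receptor on different sides of the limit. Both probes of CCL25 were above it on every array and both probes of its receptor CCR9 on none. Conversely, CCR10 was above it on every array with both probes, and its ligand CCL28 on 1 and 6 arrays. CCL25 lay at 7.48 to 8.99 in single arrays with probe A_70_P051146. IL8 (now CXCL8), which attracts neutrophils, was above the limit on 31 arrays with probe A_70_P039662. It read 8.34 on Control LV 7, and on no other LV array more than 7.11.

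Control LV 7 was the highest LV array for 16 of the 79 probes (20.3%), among them 14 of the 65 with a gene name (21.5%), and for 10.6% of all probes. Among them were IL8, TNF (7.34, next 7.09), both probes of CD14, both of IL18 and 2 of the 3 of TLR6. Its mean over the leukocyte markers outside the rule was 8.54, against 7.15 to 8.20 on the other 15 LV arrays. Lysozyme (LYZ) and complement C3 were also highest there. Not every gene of myeloid cells was. CD93 had its lowest LV value there (7.73), and the Fc receptor gene FCGR1A was highest on CORT LV 2 (7.96). C3 read 12.81 with probe A_70_P041826, against at most 10.97 on the other LV arrays.

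CD14 was 1 of the 3 genes called in the LV. With probe A_70_P030286 it lay between 7.29 and 7.81 on the Control arrays (median 7.39) and between 7.14 and 7.46 on the CORT arrays (median 7.29). The groups overlapped, and 7 of 8 CORT arrays were below the Control mean. The difference was -0.16 ± 0.07 (SE), 0.892-fold (limma, unadjusted p = 0.033, exact permutation p = 0.0261). The call was lost when any 1 of Control LV 2, 4 or 7 or CORT LV 1, 3, 4 or 6 was left out. Without Control LV 7, the highest array, the difference was -0.11 (limma, unadjusted p = 0.0657), and without the other 6 it lay between -0.16 and -0.14. The probe A_70_P030287, which shares 59 of its 60 bases, gave -0.09 (limma, unadjusted p = 0.357). In the IVS the difference of A_70_P030286 was -0.13 (limma, unadjusted p = 0.268). Mean levels of the leukocyte marker list ranged from 7.15 to 8.54 on the Control LV arrays and from 7.37 to 8.20 on the CORT LV arrays. Their part in the CD14 difference was not tested.

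No other leukocyte or membrane antigen was called. CD81 and CD9, tetraspanins of many cell types, were bright at 12.9 and 10.6. CD93, found on endothelial and myeloid cells, varied most of the group, from 7.73 to 9.39 in the LV and from 7.30 to 9.17 in the IVS. CD40, the co-stimulatory receptor of B cells and other antigen-presenting cells, was above the limit on every array. CORT LV 8 was its highest CORT array in the LV with both probes (8.40 and 7.79).

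T cell antigens lay near the limit. With probe A_70_P039466 CD3E read 5.76 on Control LV 3 and 6.97 to 7.72 on the other LV arrays. With probe A_70_P039467 it read 6.73 to 7.22 in the LV. CD247, the zeta chain of the same complex, was above the limit on 31 and 30 arrays, and CD5 on 30 with each probe. CD4, the co-receptor of helper T cells, was above it on 2 and 3 arrays, CD28 on 3 with 1 probe, and CD154 on 1 with 1 probe. Of 15 T cell antigens fixed as markers, 5 were named in the files, and CD40 alone of 8 B cell antigens. None of the 6 T cell probes tested passed in either tissue (differences of -0.02 to 0.15 in the LV and -0.02 to 0.05 in the IVS). The 0.15 was that of CD3E A_70_P039466. It was 0.46 within slide 1, which held Control LV 3, and -0.15 within slide 2. The other CD3E probe gave -0.02.

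IL13RA1 was the called gene with the largest difference in the LV. With probe A_70_P002812 it lay between 8.72 and 9.08 on the Control arrays (median 8.95) and between 8.12 and 9.27 on the CORT arrays (median 8.61). The difference was -0.33 ± 0.15 (SE), 0.795-fold (limma, unadjusted p = 0.0375, exact permutation p = 0.0592). The difference lay on a single slide. It was -0.01 among the arrays of slide 1. It was -0.65 among those of slide 2, where all 4 CORT arrays (8.12 to 8.44) were below all 4 Control arrays (8.72 to 9.08). In the IVS the difference over all arrays was -0.02 (limma, unadjusted p = 0.929). For slides 3, 4 and 5 of the IVS taken singly it was 0.40, -0.11 and -0.41, and on slide 5 the 4 CORT arrays (8.96 to 9.25) again were below the 3 Control arrays (9.44 to 9.65). The share of all probes whose groups separated in this way on a slide was not counted. The second probe, A_70_P002811, moved the other way in the LV, by 0.10 (limma, unadjusted p = 0.0679, exact permutation p = 0.0398). It lay between 6.41 and 6.60 on Control and between 6.42 and 6.75 on CORT arrays, close to the limit and above it on 12 of 16 arrays. Leaving out Control LV 2, 3, 4 or 7 or CORT LV 5, 6, 7 or 8 ended the call of A_70_P002812 (differences of -0.32 to -0.26). Without slide 2 it was -0.01 (limma, unadjusted p = 0.9).

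**Figure D5:**
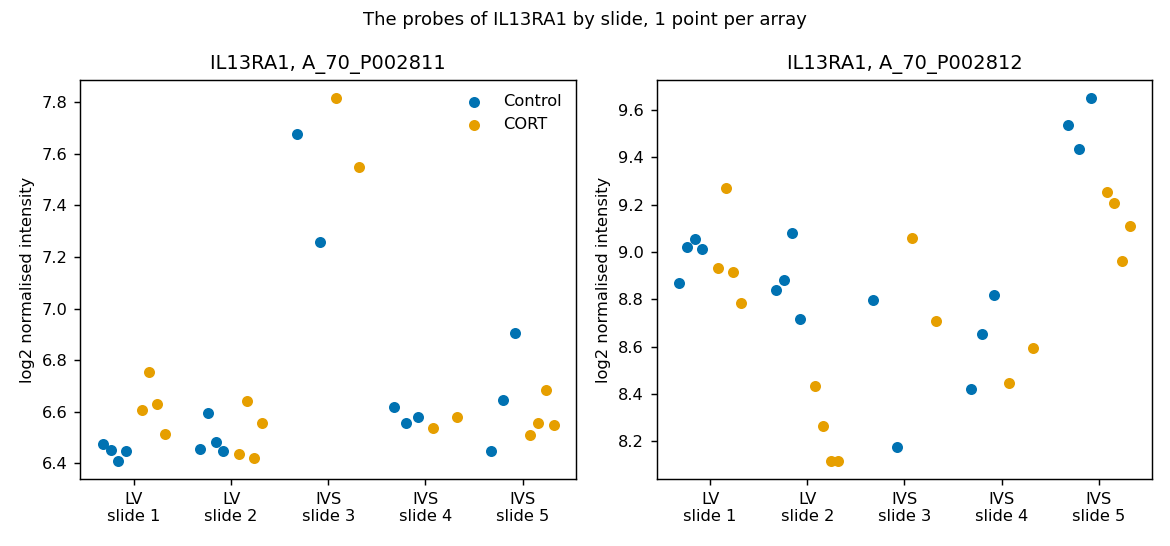
Log2 normalised intensity (vertical axes, each with its own range, normalised within each tissue) of the probes of IL13RA1 on the 5 slides, 1 point per array, for Control (blue) and CORT (orange) lambs. On slides 2 and 5 the CORT arrays lie below the Control arrays for A_70_P002812. For A_70_P002811 the 4 arrays of slide 3 lie above all others.

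IL2RA, the alpha chain of the interleukin 2 receptor, was above the limit on 30 and 32 arrays and its differences did not exceed 0.05. Of the interleukins, IL18, which activates interferon gamma production, was the only one above the limit on all arrays, with 2 of its 3 probes. IL15 was above it on 7 to 30 arrays depending on the probe, IL12A on 11 and 29, IL12B on 3 and 12, IL1A on 2 and 24, IL10 on 9 and 14, and IL6 on 5. IL2, IL4 and IL5, cytokines that T helper cells make, were above it on no array with 1 probe each, and with the other on 1, 1 and 16. The highest IL6 value was 7.88 on Control LV 2, and the next Control LV array read 6.86. The 12 interleukin probes tested in the LV differed by -0.10 to 0.07 (lowest unadjusted p = 0.218, limma), and the 11 in the IVS by -0.08 to 0.10 (lowest unadjusted p = 0.251, limma).

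In the TNF family, TNF itself was above the limit on every array at 6.58 to 7.34, and so was its receptor TNFRSF1A. TNFSF13B, the B cell survival factor BAFF, was above it on 4 and 5 arrays. Neither was called (TNFRSF1A differed by 0.13 in the LV, TNF by less).

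Of the toll-like receptors, TLR3, TLR4 and TLR6 were above the limit on every array with at least 1 probe. TLR2 was above it on 15 and 28 arrays and TLR7, which senses single-stranded RNA, on 4 and 24. TLR1, TLR8 and TLR9 were above it on 1 to 8 arrays. TLR6, the partner of TLR2 in sensing bacterial lipopeptides, was called in the LV with probe A_70_P049631. The Control arrays ranged from 7.30 to 7.79 (median 7.58) and the CORT arrays from 7.20 to 7.53 (median 7.39). The groups overlapped, but all 8 CORT arrays were below the Control mean. The difference was -0.15 ± 0.07 (SE), 0.9-fold (limma, unadjusted p = 0.0458, exact permutation p = 0.0476). The call was lost without any 1 of 12 of the 16 arrays, all but Control LV 1 and 8 and CORT LV 4 and 6 (differences of -0.16 to -0.12). Without Control LV 7 the difference was -0.12 (limma, unadjusted p = 0.0993). The other TLR6 probes gave -0.05 and -0.06 (limma, unadjusted p = 0.49 and 0.33). Of the 10 TLR probes tested in the LV 7 were lower in CORT lambs (among all probes 49.0%), and of the 8 in the IVS 7 were lower (among all probes 51.2%), with only the 1 call. Probes of 1 gene are not independent, so these counts hold fewer genes than probes.

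The 17 sequence tags include the brightest probe of the set, CD288091 A_70_P001951 at 16.9. CD289128 A_70_P012746 (15.2), CD286004 A_70_P012726 (15.1), CD289182 A_70_P052771 (11.3) and CD287234 A_70_P059256 (11.2) were also among the 10 brightest. What these tags encode is not stated in the files. CD286004 A_70_P012726 was the call in the IVS. Its Control arrays ranged from 14.01 to 15.43 (median 15.11) and its CORT arrays from 15.22 to 15.42 (median 15.28). All 8 CORT arrays were above the Control mean, and the difference was 0.35 ± 0.16 (SE), 1.27-fold (limma, unadjusted p = 0.0491, exact permutation p = 0.0595). Taken by slide, the difference was 0.62 on the third, 0.50 on the fourth and -0.02 on the fifth. The call was lost without any 1 of Control IVS 1 to 4 or any 1 of the 8 CORT IVS arrays (differences of 0.21 to 0.36). In the LV, where the groups overlapped as well, the same tag differed by 0.11 (limma, unadjusted p = 0.187). CD289197 A_70_P012741 had the largest IVS difference of the set, 0.68, which was not called (limma, unadjusted p = 0.092). It read 11.48 on CORT IVS 1 and 9.81 on CORT IVS 2, both on slide 3, and at most 8.67 on the Control IVS arrays. Its standard deviation within IVS groups was 0.84, the third largest of the set after OVAR-DQA1 (1.45) and CXCL10 (1.13). Without CORT IVS 1 the difference was 0.32, and without slide 3 it was 0.17. CD286747 A_70_P060861 was likewise highest on these arrays (9.68 and 8.83, at most 7.75 on the Control arrays), with a difference of 0.48 (limma, unadjusted p = 0.0774). Without CORT IVS 1 that difference was 0.25, and without slide 3 it was 0.04. Without slide 5 it was 0.93 and passed (limma, unadjusted p = 0.03).

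Whether the CORT difference itself differed between the tissues was tested as an interaction over all 32 arrays. Of 75 probes tested, 1 (1.33%) passed, with a larger CORT difference in the IVS, against 2.03% of all 11795 (1.04% in that direction). None did after adjustment (0.0% of all probes, limma). It was the sequence tag CD288438 A_70_P006696. Its Control arrays ranged from 10.63 to 10.85 and its CORT arrays from 10.61 to 10.77 in the LV. In the IVS they ranged from 9.91 to 10.69 and from 10.50 to 11.03. The CORT difference was 0.28 ± 0.13 (SE) larger in the IVS (limma, unadjusted p = 0.039). The CORT difference in the IVS was 0.77 within slide 3, 0.18 within slide 4 and -0.06 within slide 5. Without CORT LV 2 and CORT IVS 1 the interaction was 0.23 (limma, unadjusted p = 0.0855), and no probe of the set passed.

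The tissues were compared with the treatment as a term and the slide as a random block, since each slide held 1 tissue. Of the 75 probes, 4 (5.33%) passed, against 11.1% of all probes. They were 2 higher and 2 lower in the IVS, against 5.83% and 5.27% of all probes. None passed after adjustment (lowest adjusted p = 0.324, limma), which 0.119% of all probes did. With all 32 arrays normalised together, IL13RA1 A_70_P002811 was 0.35 higher in the IVS (limma, unadjusted p = 0.017). All 4 arrays of slide 3 read 7.21 to 7.76, and no array of another slide read more than 6.88. IRF2 was lower in the IVS (log2 difference -0.22, limma, unadjusted p = 0.0451), with slide 3 again apart at a mean of 7.29 against 7.59 to 7.82 on the other slides. For both, tissue and slide 3 cannot be told apart by these differences. Over slide 5 alone, scanned with the LV arrays, IL13RA1 differed by 0.09 and IRF2 by -0.05. The tag CD289191 A_70_P063041 was higher in the IVS by 0.26 (limma, unadjusted p = 0.0218), with slide means of 8.01 to 8.12 in the IVS and 7.70 to 7.89 in the LV. The tag CD288438 A_70_P006696 was lower in the IVS (log2 difference -0.30, limma, unadjusted p = 0.0178), at 9.83 to 10.96 on single arrays against 10.68 to 10.92 in the LV.

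Genes of the same pathways that the naming rule does not take were counted in the same way between CORT and Control lambs. Of the fixed list for cytokine and receptor signalling, 11 genes were tested in the LV and 10 in the IVS. Of the list for antigen presentation and interferon response 5 were tested in each tissue, and of the list for innate effectors and complement 7. None of these was called in either tissue, nor were any of the 7 leukocyte markers tested. Of the markers of other cell types, both probes of the collagen gene COL3A1, a fibroblast marker, were lower in the LV of CORT lambs (differences of -0.27 and -0.28, limma, unadjusted p = 0.0126 and 0.0127). The probes of DCN, the other fibroblast marker in the files, differed by 0.09 and 0.03 (unadjusted p = 0.414 and 0.771, limma). The adipocyte, endothelial and erythrocyte markers held no call.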

How the data were processed

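RNA of 32 tissue samples (8 Control and 8 CORT lambs, LV and IVS) was labelled with Cy3 per the labels and hybridised to 1-colour Agilent sheep arrays. The scanner intensity of each spot was deposited by the authors, and the authors' own normalised log2 values were deposited as a matrix, which served as an alternative here. Depth does not apply to arrays; the number of arrays limits the precision. Median intensities per array were 139.3 to 217.0 (Control LV), 152.8 to 201.2 (CORT LV), 131.2 to 332.4 (Control IVS) and 177.3 to 217.5 (CORT IVS). No spot of the 122 probes was saturated.

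Mean and local background signals were corrected with normexp (offset 50), the log2 values were quantile normalised over the 16 arrays of a tissue or, for the interaction and the tissue comparison, over all 32, and spots of 1 probe were averaged (limma 3.58.1, R 4.3.3). A probe was tested when its mean signal was over 1.1 times the negative controls' 95th percentile on 8 or more of 16 (or 16 of 32) arrays. The two-sided test was limma's lmFit and eBayes at an unadjusted p of 0.05, as in the study's methods, with Benjamini-Hochberg adjustment over all probes tested. For single probes an exact permutation test enumerated all 12870 assignments of 16 arrays to the groups. The labels do not say which samples share a ewe, so p-values measure the spread between arrays. The slide, read from the files, was a random block for the tissues (consensus correlation 0.264, statmod 1.5.0). Counts and figures used Python 3.11.15 with pandas 2.3.3 and numpy 2.4.6. The fit was tested on simulated data with known changes before use.

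Of the 122 probes, 82 carry a RefSeq accession, of which 80 matched the RefSeq gene table (assembly ARS-UI_Ramb_v3.0), and 6 probes have a newer symbol there. The values of 1 member are not reported here. Probe sequences are those in the scanner files, and their place in the transcript or genome was not determined. The members and lists were chosen with earlier results of these data known. The text names members that passed in any comparison, the 10 brightest, the 5 most variable of each tissue, defining leukocyte markers, MHC genes, genes with several probes and members above the limit on no array. Alternatives were other background corrections and normalisations, the deposited matrix, other limits on dim probes, slide or replicate number as a block, array weights, a trended variance and leaving out slides. Leaving out single arrays, the arrays that stood apart, and IVS arrays of other scan days was chosen after seeing the data.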

Additional observations from a re-analysis of the deposited data

Results flagged for a closer look

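Over 310 groups of 8 arrays, 40 (12.9%) had 1 array far from the rest. Its gap to the next was above Dixon's critical share of the group's range, which independent, normally distributed values exceed in about 5% of groups. The share among all probes of the array was not counted. Probes of 1 gene and tissues of 1 heart are not independent, so the 5% is not a background for this set. CORT LV 2 held 8 of the 40. It was the highest CORT LV array for CXCL10 (10.91, next 8.06), CD288271 (12.16, next 10.40), both probes of IFNAR2 (9.24 and 10.39), IFNAR1E A_70_P030381 (11.90), TLR3 A_70_P049627 (8.85) and both probes of IRF3 (8.67 and 9.05). CORT IVS 1 held 4, CXCL10 (11.09, next 7.90), CD288271 (11.69, next 10.32), OVAR-DQA1 A_70_P016751 (10.77, next 8.38) and TLR3 A_70_P049626 (8.09, next 7.49). Control LV 7 was the highest Control LV array for IL8 A_70_P039662 (8.34, next 7.04), TNF (7.34) and IFNAR2 A_70_P030246 (9.11).

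Other high values in the LV were IL13RA1 A_70_P002811 on Control LV 6 (6.60), CD286267 (7.43) and IL15 A_70_P041521 (7.35) on Control LV 5, and TLR7 A_70_P049646 on Control LV 2 (7.22). On CORT arrays they were CD9 A_70_P003191 on CORT LV 1 (10.76), both probes of CD40 on CORT LV 8 (8.40 and 7.79) and CD287234 on CORT LV 3 (11.47). Low values in the LV were those of MHCII-DRB1 (8.59), TLR3 A_70_P049627 (7.62) and OVAR-DQA1 A_70_P053731 (8.08) on Control LV 1. CCR10 A_70_P030211 (5.79) and CD3E A_70_P039466 (5.76) were low on Control LV 3, and TLR6 A_70_P049631 on CORT LV 3 (7.20).

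High values in the IVS were CD286343 on Control IVS 1 (11.03), IL2RA A_70_P030162 on Control IVS 7 (7.77), IFNAR2 A_70_P030246 on Control IVS 8 (9.02) and CD3E A_70_P039467 on Control IVS 5 (7.34). On CORT arrays they were CD9 A_70_P003191 on CORT IVS 2 (11.42), and CCR10 A_70_P030212 (8.46) and IL8 A_70_P039661 (6.78) on CORT IVS 6. Low values were CD1D A_70_P002727 (8.91) and CD289128 (14.60) on Control IVS 3, and CD93 (7.30) and IL15 A_70_P041521 (6.54) on Control IVS 8.

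The CORT difference of the sequence tag CD288438 A_70_P006696 was larger in the IVS than in the LV by 0.28 in the interaction test.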

How the results depend on the processing

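No probe of the set passed adjustment under any alternative for CORT against Control or for the interaction. Of the 3 LV calls, 1 was left with cyclic loess and 7 calls arose without slide 1. Without single arrays there were 0 to 4 calls, 0 without Control LV 2, 4 or 7 (among all probes 2.57% to 5.15%). Of the single IVS call, 0 were left with a normexp offset of 16, the deposited matrix or array weights (among all probes 3.4%, 3.36% and 3.03%). Of 76 probes, 2 passed with no background correction (among all probes 3.46%), 3 with the slide as a block (7.55%) and 5 without slide 5 (12.3%). Without single arrays 0 to 2 did (among all probes 1.92% to 7.19%). The interaction gave 2 calls among 75 probes with the offset of 16, the slide block or the replicate block (among all probes 2.0%, 4.84% and 2.26%). It gave 0 with cyclic loess, array weights or without CORT LV 2 and CORT IVS 1 (among all probes 1.41%, 1.42% and 2.01%). With the processed signal or the limit on every array the tissue comparison gave 2 calls, not 4 (among all probes 11.2% and 10.9%). Without the slide block 9 of 75 probes were called, against 27.5% of all probes. After adjustment 3 of these were, against 1351 of all 11795 probes. Over IVS arrays scanned with the LV arrays 12 of 75 were called, against 22.9% of all probes. After adjustment 4 of these were, against 928 of all 11795. Over all probes, calls rose from 463 to 1321 without slide 1 in the LV, from 422 to 1446 without slide 5 in the IVS, and from 1310 to 3239 without the slide block for the tissues. The cause of these shifts was not tested.

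The replicate number was not taken to pair the samples, since the labels do not say that it does. Of the 16 IVS arrays, 6 correlated best with the LV array of their number. These were CORT IVS 5, 6, 7 and 8 and Control IVS 6 and 8. Whether the numbers pair some of the samples was not settled. With the replicate block 2 of 79 LV probes and 1 of 76 IVS probes were called, against 4.64% and 5.52% of all probes. Between tissues 3 of 75 probes were called with this block, against 1411 of all 11795. Without known pairs the planned correlation of the tissues by lamb number was not run.

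No called difference turned its sign. Among all tested probes of the set, called or not, 15 and 29 of 79 turned without slide 1 or 2 in the LV, 17, 13 and 13 of 76 without slide 3, 4 or 5 in the IVS, and 28 of 75 between tissues over IVS arrays scanned with the LV arrays. Of those whose values the report gives, OVAR-DQA1 A_70_P016751 was 0.14 in the LV without slide 2. Without slide 3 the IVS differences of OVAR were 0.19 and 0.30. MHCII-DRB1 was 0.15 in the LV without slide 2 and 0.056 in the IVS without slide 4. CXCL10 was -0.0003, -0.16, -0.27 and -0.34 in the LV, and -0.032, -0.19, -0.30 and -0.38 in the IVS, with the offset of 16, the processed signal, array weights, and without slide 1 (LV) or 3 (IVS). IL13RA1 A_70_P002812 was 0.0071 in the IVS with the deposited matrix and 0.13 without slide 5. Without single arrays OVAR A_70_P016117 ranged from -0.29 to 0.016 in the LV, MHCII-DRB1 from -0.39 to 0.038 in the LV and from -0.29 to 0.10 in the IVS, CXCL10 from -0.39 to 0.19 and from -0.46 to 0.20, and IL13RA1 A_70_P002812 from -0.13 to 0.084 in the IVS. Levels under about 6.5 lie near the negative controls, where a difference can be understated.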

Other observations

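The labels number the arrays 1 to 8 in each group and tissue. Each IVS array was set against the LV arrays of its group by its deviations from the group mean, over all probes tested, as a description with no test. The best correlation lay between 0.276 and 0.639, and that with the LV array of the same number between -0.213 and 0.639. CORT IVS 1 correlated best with CORT LV 2 (0.52). OVAR-DQA1 A_70_P016751 lay on the same side of the detection limit in 16 of 16 pairs of an IVS array and its best-correlated LV array, and in 10 of 16 pairs of the same number. The 16 IVS arrays had 15 distinct best LV arrays, 8 Control and 7 CORT.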
